A study of Mus musculus with 6 samples.

Results

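The genes described here are those of vesicle trafficking and the secretory pathway. They were chosen by a rule on names, set with earlier results of these data known. It takes every gene in the deposited table whose symbol begins with the stem of a family of this pathway (Rab, Arf, Arfg, Snx, Vps, Vamp, Stx, Stxbp, Sec, Syt, Cop, Ap, Trappc or Exoc, most of them followed by a number). The rule found 167 genes among the 10580 genes of the table, all of them protein coding in GENCODE vM21. That annotation holds 282 protein-coding genes with such a name, and the other 115 are not analysed here. The share of all annotated genes that the table lists was not counted, so nothing is read from these numbers. The libraries were made from cells of male mouse testes that carried the Nr5a1 Tg transgene, a green fluorescent protein driven by the regulatory sequence of Nr5a1, a factor of steroidogenic cells. The fetuses came from CD-1 mothers and fathers heterozygous for the transgene, and the adults were heterozygous as well. There were 3 libraries of fetal Leydig cells (FLCs) at E18.5 and 3 libraries of adult Leydig cells (ALCs) at P100, and both groups carried the transgene and were sorted for strong fluorescence. Sertoli cells also express Nr5a1, cells from separate purifications were pooled before RNA extraction, and in RNA of a sorted population fewer cells of a type cannot be told apart from less RNA per cell.

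Proteins made for secretion or for membranes enter the endoplasmic reticulum through the Sec61 translocon, leave it in vesicles with a COPII coat, and are returned from the Golgi apparatus in vesicles with a COPI coat. Small GTPases of the Arf and Rab families mark membranes and recruit coats and tethers, adaptor complexes select cargo for clathrin vesicles, and SNARE proteins drive the fusion of a vesicle with its target. Sorting nexins, retromer, ESCRT and HOPS act on endosomes and lysosomes. Leydig cells release steroids without vesicles, but also secrete peptides such as Insl3, take up lipoproteins and move cholesterol between membranes.

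The deposited table gives for each gene the authors' mean of normalized counts over all 6 libraries, so FLCs and ALCs weigh equally in it. No value per library or per stage was used, so there is no SD, no test and no statement on which stage was higher. The table lists only genes with an adjusted p below 0.05 in the authors' own comparison of the stages, whose other columns were not used, and every percentile below is a place among these listed genes. The means summed to 22228751 normalized counts per library over the listed genes. The mean was divided by the exonic length of the gene, and this level, in normalized counts per kilobase (kb), is the value compared between genes. Lengths and overlaps are from GENCODE vM21, while the paper names another GENCODE release for its counts. They need not match what was counted. The exonic length is that of all annotated exons of a gene together. With the length of its longest coding transcript instead, the median of the listed genes was 216 per kb in place of 147, 5 trafficking genes moved above the median of the listed genes and 3 moved below it, and levels with that length are given below, for some of the genes they move most, as levels by coding transcript. Of the Leydig cell markers, Insl3 had a level of 414861 per kb and Star, the lowest of the 5, 21275, at a percentile of 99.8 or above. Markers of Sertoli cells (Amh, Dhh), germ cells (Ddx4), endothelial cells (Esam), progenitors (Tcf21) and immune cells (Csf1r, Emr1, Cxcl2) lay between 5.61 and 170.0 per kb, and 0 of 3 peritubular myoid markers was listed. Of the spermatid transcripts, 3 were high, with 3569.8 per kb for Prm2, 2623 for Prm1 and 2301 for Tnp1, while Acr had 49.0 and Spaca1 48.2. The part of these other cells in the levels of the trafficking genes was not tested.

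The trafficking genes were mostly at medium to high levels. Their median was 361 per kb (quartiles 105 and 758), against 147 for all listed genes (quartiles 31.8 and 428). Of the 167 genes, 115 (68.9%) lay above the median of the listed genes and 26 (15.6%) in their top 10%. Only 14 (8.38%) had a mean under 100 normalized counts, against 23.0% of all listed genes. The levels ran from 1.11 per kb for Snx20 to 3868 for Arf1, a range of 3499 times. By coding transcript Sec14l5 was the lowest, at 1.31 per kb. The 10 highest genes held 24.1% of the summed level, and all members together 1.68% of the normalized counts of the table, of which they were 1.58% of the genes. With the listed genes divided by level into 10 bins of equal size, the lowest bin held 8 members, the eighth 30, the ninth 32 and the highest 26.

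**Figure D1:**
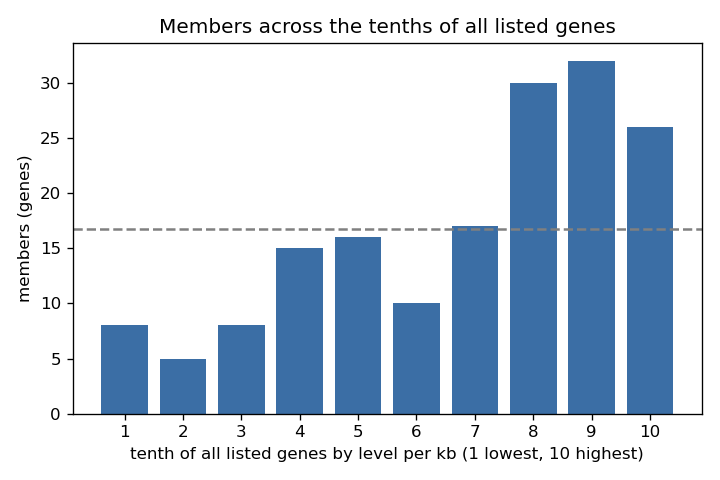
Number of trafficking genes (vertical axis) in each of 10 equal bins of all listed genes ordered by level per kb (horizontal axis, 1 lowest, 10 highest). The dashed line is the number if the members were spread evenly, and the bars of the eighth bin, the ninth and the highest (30, 32 and 26 genes) stand above it.

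The Arf GTPases, which recruit COPI and clathrin adaptors to Golgi membranes, had the highest median of the 20 classes, 1794 per kb over 5 genes. Arf1 was the highest of all members, with a mean of 8081 normalized counts and a level of 3868 per kb, at a percentile of 98.2. It lies on chromosome 11 from 59211412 to 59228270 of GRCm38. Arf5 had 1993 per kb, Arf4 1794 and Arf3 1299, and Arf2, the lowest, 425. The Arf1 level was 1.94 times that of Arf5, the next of the family, but 1.19 times by coding transcript, and without division by length the next was Arf4, at a ratio of 1.25. Of Arf1, 10.5% of the transcript windows of 50 bases are shared with transcripts of other genes. Arfgap3, which switches Arf1 off on Golgi membranes, had 278 per kb.

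The COPI coat came next, with 8 listed subunits at a median of 1163 per kb, all above the median of the listed genes and 6 of them in the top 10%. Copa, the alpha subunit, had the highest mean of any trafficking gene, 12331 normalized counts, and a level of 1308 per kb. It lies on chromosome 1 from 172082529 to 172122330. The beta subunits Copb1 and Copb2 had 1152 and 1183 per kb and Cope 1152. By coding transcript these 4 subunits lay between 1922 per kb for Copb1 and 2973 for Cope. The gamma and zeta subunits are each encoded by a pair of paralogs. Copg1 had 726 per kb and Copg2 442, while Copz2 had 1614 and Copz1 1174. Among the COPI subunits the highest level was 3.65 times the lowest, and 6.70 times by coding transcript.

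In the COPII coat, Sec13, which also serves in the nuclear pore, had 1442 per kb and Sec31a, its partner in the outer cage, 1142. Sec16a, which organises the exit sites of the endoplasmic reticulum, had 609.9. The inner coat had 539 per kb for Sec24b and 511 for Sec24d, which bind cargo, and 307 for Sec23b, the GTPase activator of the coat. Sec23ip, a partner of the inner coat, had 412. The COPII genes spanned 4.69 times between Sec13 and Sec23b, and by coding transcript Sec24b was the lowest, at 633 per kb against 637 for Sec16a and 697 for Sec23b. Against the COPI median, that of COPII was 539 per kb.

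Genes of the translocon varied more among themselves than those of the coats, with 21.5 times between the highest and the lowest. Sec61a1, the pore-forming subunit, had 1115 per kb and its partner Sec61b 1023, whereas Sec61g, the third subunit of the same channel, had 77.6. For Sec61b 17.4% and for Sec61g 14.8% of the windows of 50 bases in their transcripts also occur in transcripts of other genes, among them unnamed predicted genes, so reads of both may have been divided and their levels are uncertain. Sec62 and Sec63, which help proteins through the channel, had 1339 and 529 per kb. The second alpha subunit, Sec61a2, had 232, and Sec11c, a catalytic subunit of the signal peptidase, 62.3. The low level of Sec11c rested on the length: by coding transcript it was 493 per kb, above the median of the listed genes, Sec61g was the lowest of the class with 103, and Sec61a1 the highest with 2366.

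**Figure D2:**
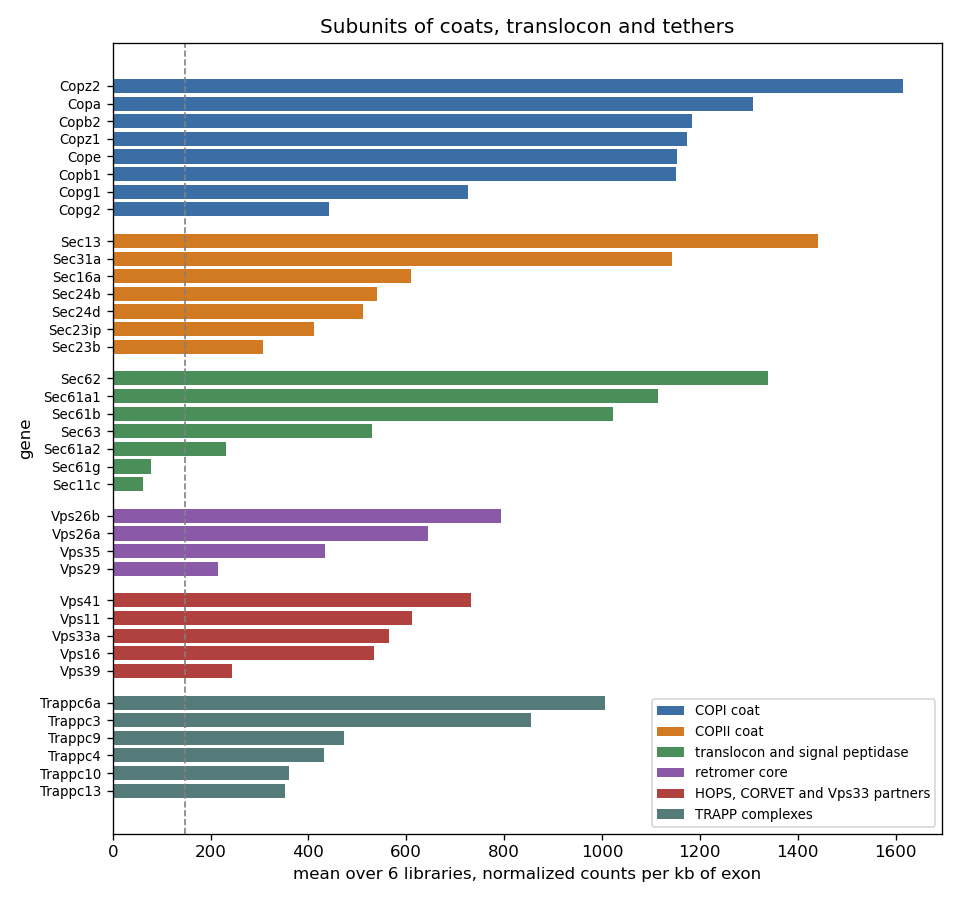
Mean level over the 6 libraries, in normalized counts per kb of exon (horizontal axis), of each listed subunit (vertical axis) of the COPI and COPII coats, the translocon, retromer, the HOPS group and TRAPP, with the median of all listed genes as a dashed line. The COPI bars reach from 442 to 1614 per kb, and Sec61g and Sec11c are the only bars below the dashed line, Sec11c not so by coding transcript (493 per kb).

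The Rab GTPases were the largest class, with 34 genes that together held 26.0% of the summed level of all members. Their median was 402 per kb, and 27 of them lay above the median of the listed genes. Rab7, which directs late endosomes to lysosomes, led the class with 2845 per kb (mean 7424 normalized counts, chromosome 6, 87999106 to 88045270), followed by Rab2a with 2379.8 and Rab5c with 2155. Rab2a acts between the endoplasmic reticulum and the Golgi, and Rab5c on early endosomes. Of Rab7, 11.2% of the transcript windows are shared with the pseudogene Rab7-ps1 and with Gm9874.

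Of the Rabs of early secretion, Rab1b had 1882 per kb and Rab1 (Rab1a in current nomenclature) 1535, both of which control traffic from the endoplasmic reticulum to the Golgi. Rab2b was lower than Rab2a, at 330.1, with 64.0% of its exonic bases opposite exons of Tox4 and Gm43766. Rab43 had 605 per kb, but 74.5% of its windows lie in an overlapping gene on the same strand, Gm45140, and its level is uncertain. Rab33a, a Rab of the Golgi, had 313.

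Among Rabs of recycling, Rab11a had 1341 per kb, Rab11b 345, Rab4b 874 and Rab4a 301. For Rab4b 58.1% of the windows are shared, chiefly with the read-through gene Gm21983. Other endosomal Rabs were Rab31 with 1010.5 per kb, Rab9, which returns receptors from late endosomes to the Golgi, with 946, Rab5b with 689.7 and Rab21 with 246. Of the Rabs of polarised or regulated exocytosis, Rab13 had 1332 per kb, Rab8a 515, Rab3d 506, Rab3a 459 and Rab27a 213. Both Rab3 genes and Rab27a act on secretory granules.

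At the low end of the class stood Rab15 with 7.23 per kb, Rab9b with 6.76 and Rab37 with 1.33, where the mean of Rab37 was 7.09 normalized counts. Rab32 and Rab23, a Rab of primary cilia, had 44.4 and 42.9 per kb. The 7 listed regulators and effectors of Rabs had a median of 97.5 per kb, below that of all listed genes. The highest by this level was Rab11fip5, an effector of Rab11, with 644 per kb, then came Rab3gap1, a subunit of the complex that switches off Rab3, with 260.4 and Rab3ip, an exchange factor for Rab8, with 127. By coding transcript Rab3gap1 led with 720.4. The lowest was Rab11fip4 with 3.07.

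**Figure D3:**
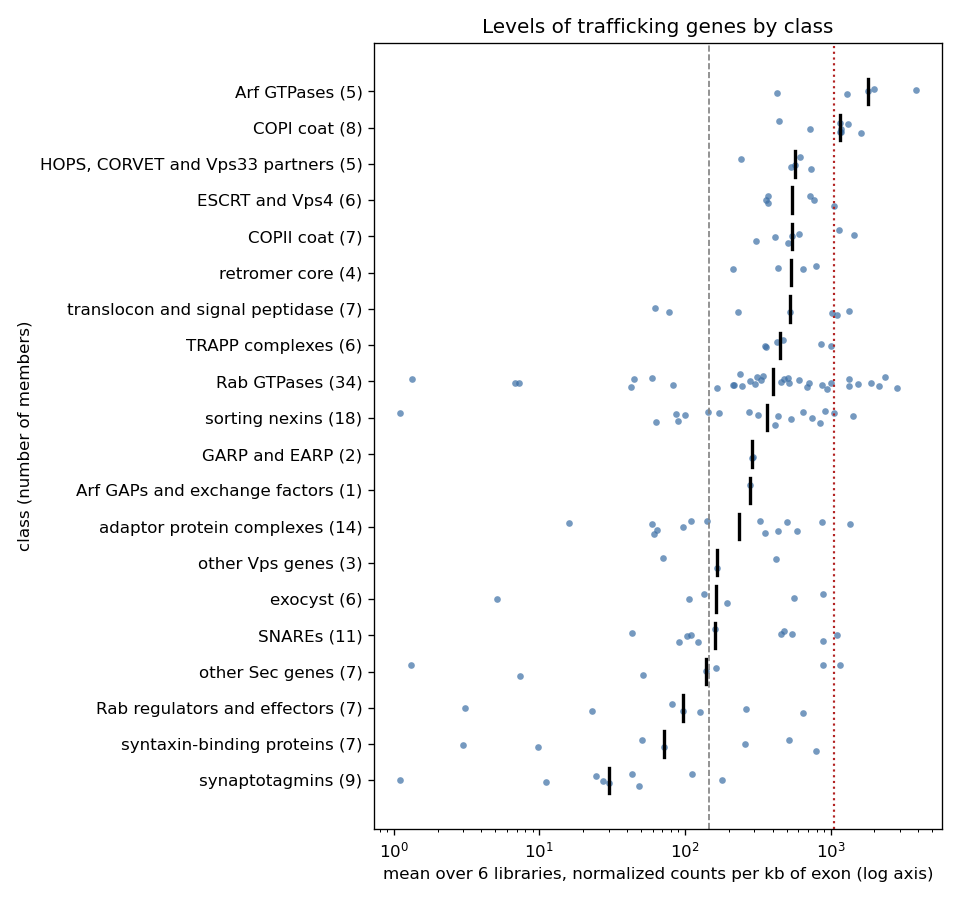
Level of every trafficking gene (points, horizontal log axis, normalized counts per kb of exon) by class (vertical axis, number of genes in brackets, ordered by class median). Black bars are class medians, the dashed line is the median of all listed genes and the dotted line their 90th percentile. The medians of the Arf GTPases and the COPI coat are furthest to the right, and that of the synaptotagmins, at 30.0 per kb, furthest to the left.

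Of the complexes that tether vesicles, the 6 TRAPP subunits all lay above the median of the listed genes, within 2.85 times of each other. Trappc6a had 1007 per kb and Trappc3, which like it belongs to the core shared by the complexes, 855. Trappc9 had 473 and Trappc4 432, Trappc10 had 361 and Trappc13 was lowest with 353. The exocyst, which tethers vesicles to the plasma membrane, was more uneven. Exoc7, the subunit that binds membrane lipids, had 561 per kb, Exoc4 194, Exoc1 135 and Exoc6 107. By coding transcript Exoc1 had 482 and lay above the median of the listed genes. The highest gene of this class was Exoc3l, a relative of the subunit Exoc3, with 882 per kb, and the lowest Exoc3l4, another relative, with 5.14. The GARP complex, which tethers endosomal vesicles to the Golgi, was represented by Vps51 with 291 and Vps53 with 289, and of the Vps51 windows 15.2% are shared with overlapping genes.

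On endosomes and lysosomes, the 5 listed genes of the HOPS group had a median of 565 per kb. Vps41, which joins HOPS to late endosomes, had 732 per kb. The core subunits Vps11, Vps33a and Vps16 had 612, 565 and 534, and Vps39 was the lowest with 243. Retromer, which returns receptors from endosomes, had 793 per kb for Vps26b, 644 for Vps26a, 433 for Vps35 and 215 for Vps29. By coding transcript Vps35 stood at 1109 and Vps26a at 679.6. The ESCRT class, which sorts ubiquitinated cargo into late endosomes, was led by Vps37a with 1047, followed by Vps37b with 767, of which 42.5% of the exonic bases lie opposite exons of Hip1r and Gm37939. Vps25 had 719 per kb, with 59.1% of its windows shared with Ramp2, a gene that overlaps it on the same strand. Vps4b, the ATPase that takes the ESCRT filament apart, had 371, Vps37d 369 and Vps37c the lowest level of the class, 361.

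Sorting nexins, proteins that bind the phosphoinositides of endosomes, ranged from 1.11 to 1429.8 per kb over 18 genes, with 12 above the median of the listed genes. Snx22 led them with a mean of 4134 normalized counts (chromosome 9, 66065176 to 66069719). Of its exonic bases, 28.5% lie opposite exons of Ppib, a chaperone of the endoplasmic reticulum, and whether the counting used strand is not given in the sources used here, so its level is uncertain. Snx17, a receptor adaptor that recycles lipoprotein receptors of the LDL family, had 1063 per kb. Snx5 and Snx6, which bend membranes with retromer, had 919 and 844, and their partner Snx1 749. Snx32, the close relative of Snx5 and Snx6, had 144, and by coding transcript 274, above the median of the listed genes. By coding transcript Snx17 and Snx22 had 1628 and 1625. Snx20 had the lowest level per kb of all trafficking genes, from a mean of 7.12 normalized counts, and 4.19 per kb by coding transcript.

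The adaptors select cargo in complexes that differ in place. The plasma membrane adaptor AP-2, which selects cargo for clathrin-coated pits, had 1356 per kb for Ap2s1, 869 for Ap2b1 and 503 for Ap2m1, the last with 28.8% of its windows shared. AP-3, which sends cargo to lysosomes and related organelles, had 588 for Ap3d1, 354 for Ap3s2, 326 for Ap3m1 and 97.1 for Ap3m2. The AP-4 genes had 438 for Ap4s1, 141 for Ap4m1 and 59.1 for Ap4e1. The AP-5 genes Ap5z1, Ap5m1 and Ap5b1 had 110.4, 64.2 and 61.0 per kb. Of AP-1, the adaptor of the trans-Golgi network, Ap1s2 was listed, with 16.0, the lowest of the class.

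The 11 listed SNAREs named Vamp or Stx had a median of 162 per kb, close to the 147 of all listed genes. By coding transcript their median was 286 per kb, against 216. SNAREs with other names, such as Sec22b, Ykt6 and Gosr2, are not in this class. The highest of the class was Vamp8, a SNARE of late endosomes and of regulated secretion, with 1106 per kb. Vamp2, known from synaptic vesicles, followed with 882. By coding transcript Vamp2 was the higher, with 1524 against 1232. Stx1a, the plasma membrane partner of Vamp2 in neurons, had 544 per kb and a mean of 1451 normalized counts. Stx17, a SNARE of autophagosomes, had 478 and Stx16, of the trans-Golgi network, 456. Stx6, Stx2 and Stx8 had 123, 103 and 90.5, and Stx3 was lowest with 43.0. Stx6 had 286 by coding transcript, above the median of the listed genes. The R-SNARE of the early secretory pathway, Sec22b, had 880.1 per kb, while its relatives Sec22a and Sec22c had 164 and 51.4.

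Syntaxin-binding proteins hold syntaxins and their SNARE partners ready for fusion. Of these, Stxbp3a (Stxbp3 in current nomenclature) had 795 per kb and Stxbp2 519. Stxbp5l was the lowest with 3.01. The synaptotagmins, a family that includes calcium sensors of regulated fusion, had the lowest median of all classes. Of the 9 listed, 1 lay above the median of the listed genes. This was Syt11, among the members that do not bind calcium, with 179 per kb, which by coding transcript lay below that median at 186. Syt13 had 111, Syt12 48.2 and Syt7, a slow sensor of granule and lysosome fusion, 30.0. Syt15 was at 1.11 per kb, with a mean of 5.73 normalized counts over the 6 libraries.

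Some genes carry the name of a family without its role. Sec14l1, a relative of a yeast lipid transfer protein, had 1164 per kb, and Sec14l4 and Sec14l5 had 139 and 1.31. Vps72 is a subunit of chromatin remodelling complexes and had 423 per kb. Sec1 encodes a fucosyltransferase, and its level was 7.37, with 6.57% of its windows shared with Fut2. Vps9d1 had 165, and Vps13a, a bridge-like lipid transfer protein, 71.0.

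Paralogs of 1 subunit were compared within 19 sets that had at least 2 listed genes. In 9 of them the leading gene was at least 2 times the next (12 by coding transcript, 11 without division by length), and in 2 at least 10 times. These were Rab9 over Rab9b (140.1 times) and Exoc3l over Exoc3l4 (172 times). Without division by length these ratios were 61.6 and 112. Rab2a held 87.8% of the Rab2 level, Sec61a1 82.8% of that of Sec61 alpha, Rab11a 79.5% of that of Rab11 and Rab5c 75.8% of that of the listed Rab5 genes. Without division by length Rab2a was 3.69 times Rab2b in place of 7.21, Rab11a 1.90 times Rab11b in place of 3.89 and Rab5c 1.63 times the next in place of 3.12. Smaller shares were 51.4% for Sec24b against Sec24d, 52.4% for Rab3d against Rab3a and 55.2% for Vps26b against Vps26a. Without division by length the ratio was 2.08 for Rab3d over Rab3a and 2.19 for Vps26b over Vps26a. The order within 4 sets turned with the length used: Sec24d and Rab3a led with the longest coding transcript, and Copz1 and Rab1 without division by length. Since the mean covers both stages, the share at each stage cannot be read from it.

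**Figure D4:**
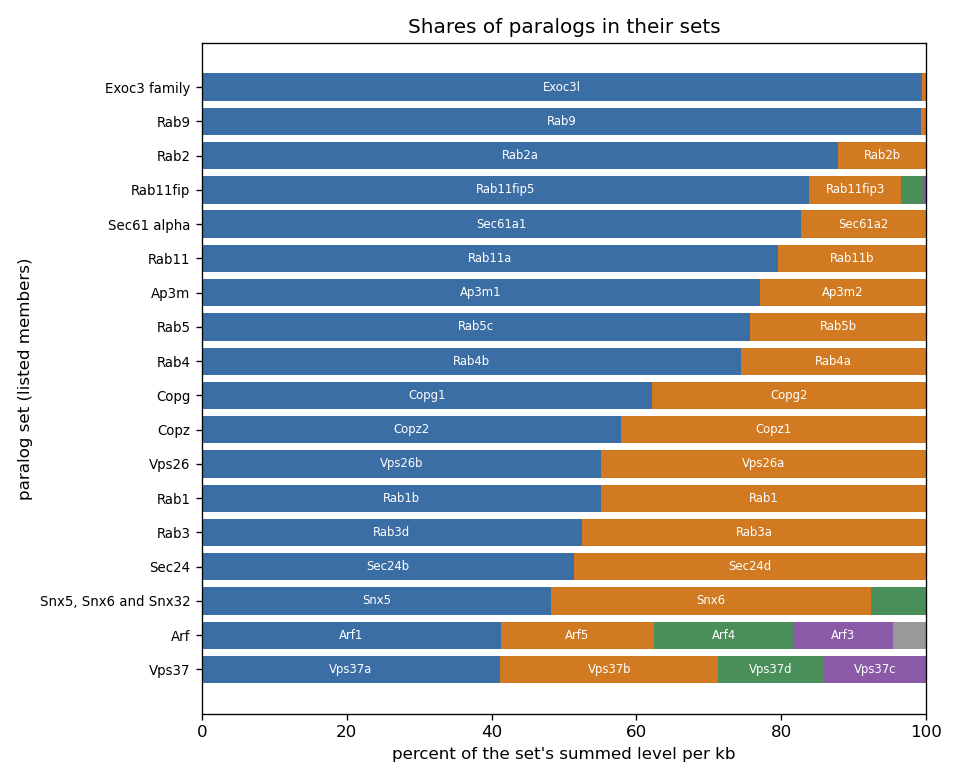
Share of each listed gene (coloured segments, named where wide enough) in the summed level per kb of its paralog set (horizontal axis, percent), for 18 of the 19 sets with at least 2 listed genes (vertical axis). The top bars are held almost wholly by Exoc3l and Rab9, and the leading segments of the Sec24 and Rab3 bars take 51.4% and 52.4%.

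Other genes of the pathway, from lists that the name rule does not cover, were set beside the members. Of the 17 listed genes for entry into the endoplasmic reticulum, 16 lay above the median of all listed genes. Ssr3 (3026 per kb), Rpn1 (2626) and Rpn2 (2340.2) were the highest and Tram2 the lowest (74.3). Of the 19 listed cargo receptors and their partners, 15 were above that median. Surf4, a receptor for soluble cargo, had 5135 per kb, Sar1a, the GTPase that starts the COPII coat, 2354, Mcfd2 1961 and Tmed6, the lowest, 9.32. ESCRT genes outside the rule had 12 of 14 above the median, with 2525 per kb for Chmp2a, 2438 for Chmp4b and 1624 for Chmp5, and 131 for Mvb12b. SNAREs outside the rule and SNARE partners had 9 of 12, from 1984 for Ykt6, 1573 for Gosr2 and 1160.3 for Napa down to 63.4 for Scfd2.

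Clathrin and dynamin genes had 5 of 10 above the median, with Epn1 at 2769.7 per kb, the clathrin heavy chain Cltc at 2056, Dnm2 at 795 and Hip1r at 21.1. Golgins and Golgi stacking genes had 6 of 8, with 1154 for Gorasp2, 702 for Uso1, 544 for Golga5 and 4.74 for Bicd1. Rab regulators outside the rule had 12 of 21, with Rabac1 highest (2522), Rabep2 at 1090.2 and Dennd5b lowest (21.6). Arf-like GTPases and Arf regulators had 13 of 19, from 1006 for Arl1, 954 for Cyth2 and 760.1 for Arl8b to 6.17 for Arl11. Genes of regulated secretion had the lowest median of these lists, 22.5 per kb, with 4 of 17 above the median of all listed genes. Doc2b, a calcium sensor of exocytosis, had 1829 per kb, Sv2c 786 and Unc13d, a priming factor of granules, 738, whereas Rims1 was at 0.837.

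The sequence around the transcription start was read for the members from RefSeq windows of 300 bases on GRCm38.p6, from 250 bases before the start to 50 after it, which 136 of the members had. The E-box CACGTG, which reads the same on both strands, was found at 23 members (16.9%) and at 11.0% of 7794 other listed genes. Counted by window, it was in 16.6% of the windows of the members and in 7.15% of all windows. The longer palindrome in which GT precedes and AC follows CACGTG contains that E-box and is a form of the CLEAR motif, known from genes of lysosomes. It was found at 4 members (2.94%) and 0.629% of the other listed genes. Counted by window, it was in 2.86% of the windows of the members and in 0.326% of all windows. Of the 4 members, Vps33a and Vps16 are partners in HOPS, Vps26a belongs to retromer and Rab21 to early endosomes, with levels of 565, 534, 644 and 246 per kb. 1 window of each is shown because they are the members with this motif, on the strand of the gene (GRCm38), 5′ to 3′, with the palindrome in capitals and 20 bases to each side.
Vps33a, chr5:123573000-123573049, minus strand: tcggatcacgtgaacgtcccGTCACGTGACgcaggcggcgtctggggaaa
Vps16, chr2:130424280-130424329, plus strand: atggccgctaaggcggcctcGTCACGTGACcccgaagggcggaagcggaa
Vps26a, chr10:62486960-62487009, minus strand: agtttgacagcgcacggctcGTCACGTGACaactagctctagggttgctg
Rab21, chr10:115315594-115315643, minus strand: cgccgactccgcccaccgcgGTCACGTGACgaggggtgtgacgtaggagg
The centre of the palindrome lay -9 bases from the start for Vps33a, -15 for Vps16, -179 for Vps26a and -27 for Rab21, negative values being before the start. Vps26a held the motif once more, -148 bases from another of its starts, and that window is not printed. A match describes the letters in these windows and not binding, and the share was not tested.

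Other motifs were near or below the share of the other listed genes. The cyclic AMP response element TGACGTCA, also a palindrome, stood at 4 members (2.94%, against 3.16%), namely Cope, Ap2b1, Stxbp3a and Rab11fip3. CAAGGTCA, the site read by the protein of Nr5a1 (searched on both strands), stood at 1 member, Syt6 (0.735%, against 1.46%). The ER stress response element, CCAAT and CCACG with 9 bases between them, searched on both strands, was found at 0 of 136 members and at 0.167% of the other listed genes. TATAAA on the strand of the gene was found at 1.47% of members and 5.76% of the other listed genes. The median GC content of the windows was 61.3% for the members, 59.7% for the other listed genes and 52.7% for all windows.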

How the data were processed

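Sorted Leydig cells of 3 FLC and 3 ALC libraries were sequenced with a stranded total RNA kit. As the methods state, the authors demultiplexed with CASAVA 1.8.2, used GemTools to map on GRCm38, counted by GENCODE gene, required at least 10 reads a gene and ran DESeq2. The deposited signal is the authors' average of the size-factor-scaled counts of all 6 libraries. The other deposited columns hold the authors' comparison of ALCs with FLCs (fold change, its error, test statistic and p-values) and were not used. A sheet naming libraries and stages holds no measurement. With no value per library, no test over samples could be made and depth per library is unknown.

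Python 3.11.15 and pandas 2.3.3 were used. Symbols were matched to GENCODE vM21 directly (10223 genes) or by an older symbol (301), and 56 were unmatched. The level is the mean divided by the union of exons in kb. Shared windows are distinct 50 base sequences of a gene's transcripts found on the same strand in another gene's transcripts. No window was shared for 90 members, and 10 had over 10% shared. The levels, the counts above the median and in the top 10%, and the leading gene of each paralog set were recovered from simulated data. Paralog shares were not checked in this way. The simulated data used the same gene lengths, so their recovery checks the arithmetic only. Protein sequences were not used here.

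Members, classes and lists were chosen with earlier results of these data known. The genes named are the 3 highest and the lowest of each class and list, the subunits of the complexes, paralogs, and further members described after their values were seen. Some genes the rule names are not reported here. Alternatives were another gene length, no division by length, minimum means of 10 and 100 normalized counts, and current symbols only.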

Additional observations from a re-analysis of the deposited data

How the results depend on the processing

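The number of trafficking genes above the median of all listed genes was 115, with a range of 103 to 117 over 5 alternatives, the lowest with only genes of a mean of at least 100 normalized counts, where 153 members remained. The number in the top 10% was 26, and 25 to 31 over 4 alternatives. Classes with a median above that of all listed genes numbered 16, 16 with the longest coding transcript and 15 with a minimum mean of 10. The gene that led its paralog set stayed the same in 17 of 19 sets with the longest coding transcript and in 17 without division by length. None of these counts moved by more than 1.5 times, but this limit is wide: with 167 members the count of 115 could not pass it upward. The values of single genes moved more: of 19 classes with at least 2 genes, 14 had the same highest and 16 the same lowest gene with the longest coding transcript. No paired analysis was possible because the values used are 1 mean over all libraries and no library could be left out or set beside another of the same number. The depth per library is unknown, and the lowest members, at means of 5.73 to 7.51 normalized counts (Syt15, Rab37, Snx20 and Sec14l5), rest on few reads. Genes with exons shared with or opposite other genes (10 and 44 members) have uncertain levels where counting did not separate them.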
